A study of Mus musculus with 2 samples.

Results

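The transcript models described here are 1003 spliced models that joined splice sites in combinations absent from the GENCODE M21 annotation of the mouse genome (build mm10). They were chosen from the second of 2 long-read RNA-seq libraries of mouse heart as every model that the authors placed in the NIC class, in an annotated gene, off the spike-ins and with 5 or more reads. NIC is a class of the TALON long-read annotation program, given to a transcript whose splice sites are all taken as known while their combination is not. The 1003 members lay in 715 genes and were 1003 of 82048 models of that library off the spike-ins. Their read numbers in replicate 2 chose them and are given as a description. Replicate 1 was not used in the choice, so each member was looked for there by chromosome, strand and the full chain of introns.

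Both libraries came from heart tissue of untreated 2-month-old female B6CASTF1/J mice, which are hybrids with 1 parent of the C57BL family and 1 of the CAST strain, and were made from 2 µg of total RNA each. There was 1 group, so no conditions were compared. The sample labels number the animals 3 and 4, but the library text names animal 3 for both libraries and both carry the same donor label, so whether 2 animals were sampled is not settled and the spread between the libraries may be technical. Replicate 2 held 745375 reads and replicate 1 held 905154 reads, of which 707758 and 859191 fell on annotated genes off the spike-ins. All 8 cardiomyocyte markers had reads in both libraries (summing to 49571 reads per 1000000 in replicate 2 and 46628 in replicate 1), markers of red cells summed to 29577 and 32227, and none of 4 lung markers had a read. In a whole tissue, fewer cells of a type and less RNA per cell cannot be told apart.

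Most mammalian genes are transcribed into pre-mRNA whose introns are removed between a 5′ splice site (donor) and a 3′ splice site (acceptor), and the choice among alternative sites, exons and promoters sets which mRNA and often which protein a gene makes. Heart muscle is known for its own splicing programme, in which sarcomere, calcium-handling, mitochondrial and adhesion genes use exons that other tissues skip. A read that spans a whole transcript shows which of these choices occur together in 1 molecule, which short reads do not.

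The sequences below show the events of the members that carried most reads or the largest share of their gene. They are the mm10 bases of GENCODE M21 transcripts, spliced along the exons of the member or of the named annotated transcript, since the bases of the reads themselves were not analysed here. In the first set the capitals mark 3 bases that 1 of 2 neighbouring acceptors adds, in Myh6 (chr14:54941984-54942370, minus strand) and in Ctbp1 (chr5:33248666-33249124, minus strand).
Myh6 member: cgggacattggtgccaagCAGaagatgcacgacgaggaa
Myh6-201: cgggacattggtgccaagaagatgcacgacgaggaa
Ctbp1 member: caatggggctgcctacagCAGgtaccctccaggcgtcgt
Ctbp1-211: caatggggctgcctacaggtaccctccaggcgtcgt

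In the second set the capitals mark the bases that lie in a gap between annotated exons of the antizyme genes and that the members read straight through (chr10:80828268-80828319 in Oaz1 and chr9:65686248-65686296 in Oaz2, both on the plus strand).
Oaz1 member: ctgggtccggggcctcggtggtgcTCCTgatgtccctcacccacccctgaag
Oaz2 member: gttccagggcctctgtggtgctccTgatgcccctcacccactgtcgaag

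In the third set the capitals mark an exon that the member includes, in Itgb1 (chr8:128726175-128732034) and Dctn1 (chr6:83183322-83189088), or skips, in Mbnl2 (chr14:120396593-120428946), all on the plus strand.
Itgb1 member: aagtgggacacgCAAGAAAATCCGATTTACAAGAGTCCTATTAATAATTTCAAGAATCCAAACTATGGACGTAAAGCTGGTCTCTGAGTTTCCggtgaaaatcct
Dctn1 member: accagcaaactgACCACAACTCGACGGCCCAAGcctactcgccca
Mbnl2-204: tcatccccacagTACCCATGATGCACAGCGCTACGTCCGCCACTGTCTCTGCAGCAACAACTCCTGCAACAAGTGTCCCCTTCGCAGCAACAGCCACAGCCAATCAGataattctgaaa
Mbnl2 member: tcatccccacagataattctgaaa

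In the fourth set the capitals mark very short annotated exons that the members lack, in Mpc1 (chr17:8283947-8296549), Phb2 (chr6:124716016-124716620), Sept7 (chr9:25252685-25265408) and Uchl3 (chr14:101654091-101665775) on the plus strand and Hnrnpk (chr13:58393760-58394090) on the minus strand. In the members of Hnrnpk and Uchl3 the capitals mark bases past the donor of that transcript, which the member holds instead.
Mpc1-201: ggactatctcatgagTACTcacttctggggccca
Mpc1 member: ggactatctcatgagcacttctggggccca
Phb2-201: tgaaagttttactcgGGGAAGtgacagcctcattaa
Phb2 member: tgaaagttttactcgtgacagcctcattaa
Sept7-202: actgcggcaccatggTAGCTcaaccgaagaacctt
Sept7-201: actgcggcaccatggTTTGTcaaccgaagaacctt
Sept7 member: actgcggcaccatggcaaccgaagaacctt
Hnrnpk-224: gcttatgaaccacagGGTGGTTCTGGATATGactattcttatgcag
Hnrnpk member: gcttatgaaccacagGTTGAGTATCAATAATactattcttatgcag
Uchl3-201: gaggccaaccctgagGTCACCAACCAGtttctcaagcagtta
Uchl3 member: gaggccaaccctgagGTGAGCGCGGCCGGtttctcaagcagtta

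The members held 24467 reads in replicate 2 and 25898 reads in replicate 1, which is 3.46% and 3.01% of the reads of annotated genes off the spike-ins. Per 1000000 of those reads they summed to 34570 in replicate 2 and 30142 in replicate 1. A few members carried much of this: the 10 with most reads took 38.1% of the member reads in replicate 2, and the median member had 8 reads there and 9 in replicate 1. Of the 715 genes, 710 were protein-coding. A single member was found in 564 genes, 2 members in 104 genes and 3 or more in 47 genes. The alpha heavy chain of cardiac myosin, Myh6, alone held 40 members and 6106 of these reads in replicate 2 (6445 in replicate 1).

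Of the 1003 members, 980 had the same intron chain in replicate 1, which is 97.7% (Wilson 95% interval 96.6 to 98.5%; the interval covers counting error only, since the reads are not known to be independent molecules). Over all spliced models of annotated genes with 5 or more reads in replicate 2, of every class, 99.3% were found. All 432 members with 10 or more reads in replicate 2 were found, and the 23 that were not had at most 9 reads. Members with 100 or more reads had a median ratio of replicate 1 to replicate 2 reads of 1.10 (n = 24), those with 20 to 99 reads 1.05 (n = 163), those with 10 to 19 reads 0.929 (n = 245) and those with 5 to 9 reads 0.833 (n = 571), while the libraries themselves stood at 1.21. At the read minimum, 199 of the 213 members with exactly 5 reads were found and had a median of 4 reads in replicate 1. Among the models of the class with 4 reads, which just missed the minimum, 274 of 308 were found with a median of 3 reads.

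**Figure D1:**
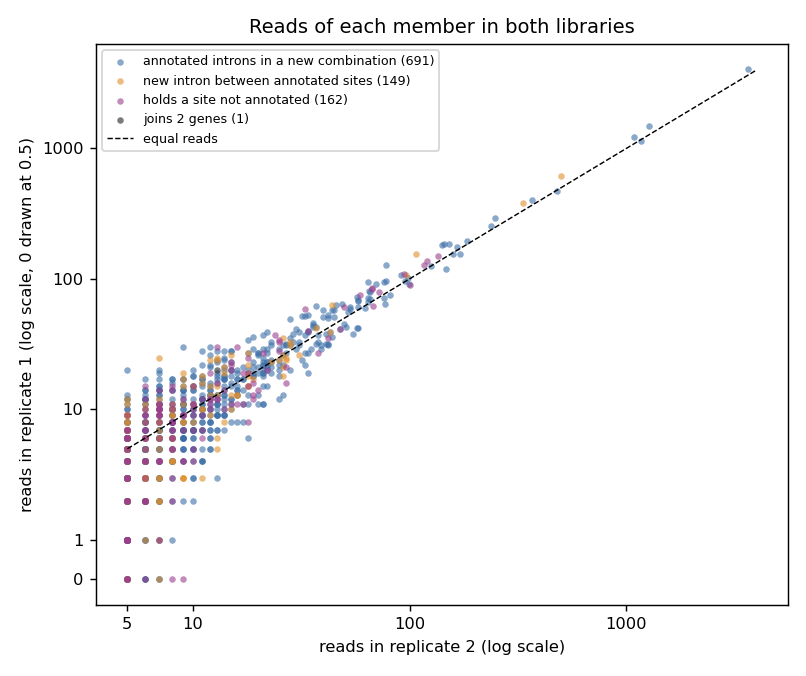
Reads of each of the 1003 members in replicate 2 (x axis) and replicate 1 (y axis), both on log scales with 0 drawn at 0.5. Colours show how the introns stand in GENCODE M21, with the number of members in each class, and the dashed line marks equal reads. All 432 members with 10 or more reads in replicate 2 lie above 0 in replicate 1.

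The members were found less often than annotated models, and no difference from the other unannotated classes passed the test. At the same minimum of 5 reads in replicate 2, 97.7% of members and 97.4% of NNC models (models that hold a site TALON does not know, 490 of 503) were found (difference 0.29 points, two-sided Fisher's exact test, adjusted p = 0.723). The members differed by -0.90 points from spliced ISM models, which match a stretch of an annotated intron chain and of which 98.6% (1413 of 1433) were found (adjusted p = 0.176 in Fisher's exact test). The difference from annotated spliced models, of which 99.7% (7721 of 7743) were found, was -2.01 points (adjusted p = 1.88e-10 in Fisher's exact test). P-values were Benjamini-Hochberg adjusted over these 3 comparisons, and models of 1 gene are not independent. With 5 to 9 reads 548 of 571 members and 2214 of 2236 annotated models were found. With 10 or more reads all 432 members and all 5507 annotated models were found, so no difference could show there. The classes also differed in depth, with a median of 17 reads in replicate 2 for annotated models and 8 for members. Members were also built of more exons, with a median of 12 exons and 3091 bases, against 10 and 2444 in NNC, 7 and 2022 in ISM and 8 and 2524 in annotated models.

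The name of the class was checked against GENCODE M21, and it held for 841 members (83.8%), whose sites were all annotated. In 691 members (68.9%) every intron was annotated and only the combination was not. These held 19419 reads in replicate 2 and 20562 in replicate 1, and 678 were found. Another 149 members (14.9%) held an unannotated intron between annotated sites, and 145 of these were found. The remaining set goes against the class name: 162 members (16.2%) in 97 genes held at least 1 site that M21 does not list, and 156 were found. Their 156 different unannotated sites lay a median of 49.5 bases from the nearest annotated site of the same kind, and 58 lay within 10 bases of one. The same intron chain was classed NNC in replicate 1 for 61 members, all of them in this set. It was classed ISM there for 19 members and NIC for 900. Of the 19, 11 had only annotated introns, 2 an unannotated intron between annotated sites and 6 an unannotated site. Among members whose sites were all annotated, 98.0% were found.

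One member joined 2 genes. It linked exons of Ndufa13, which encodes a subunit of respiratory complex I, to Yjefn3 on chromosome 8 (13 reads in replicate 2 and 20 in replicate 1). It made up 43.3% and 60.6% of the reads assigned to Yjefn3, which had 30 and 33, while Ndufa13 had 835 and 1207.

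Each member was set beside the annotated transcript of its gene with which it shared most introns. A single difference separated 875 members from that transcript, 108 had 2, and 20 had 3 or more. Among the members with 1 difference, 188 skipped an exon, 169 differed at the first exon, 151 used another acceptor, 133 another donor, and 91 included a further exon. The 169 hold members with another first exon and members with another end of the same one and a changed number of introns. The Uchl3 member described below is of the second kind. A further 5′ exon (39), a retained intron (26), an intron within an annotated exon (21), a further 3′ exon (15), another last exon (11) and a swapped exon (6) were less frequent. Of the 26 retained introns, 4 were 10 bases or fewer, and the annotated gaps of Oaz1 and Oaz2 are counted among them. In 17 members the internal change was of another kind, and in 8 both ends of 1 intron had moved.

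Acceptors and donors moved by different distances. Of the 151 acceptor shifts, 79 were exactly 3 bases and 98 were 10 bases or fewer, and the median was 3 bases. Of the 133 donor shifts, 2 were 3 bases, 16 were 4 bases and 96 were over 12 bases, and the median was 71 bases. A multiple of 3 was found in 110 acceptor shifts (72.8%) and in 56 donor shifts (42.1%). The 3-base acceptor shifts lay in 71 genes, 78 of the 79 were found in replicate 1, and they held 6270 reads in replicate 2 and 6616 in replicate 1. The exon of the member was shorter in 57 of them and longer in 22. Counting all reads that spanned the junction, in the 68 members with at least 20 such reads in replicate 1, the acceptor of the member was used in a median of 27.9% of reads in replicate 2 and 27.7% in replicate 1 (range 0.195 to 100% in replicate 1). Members with the same acceptor, such as those of Myh6, each entered these medians.

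**Figure D2:**
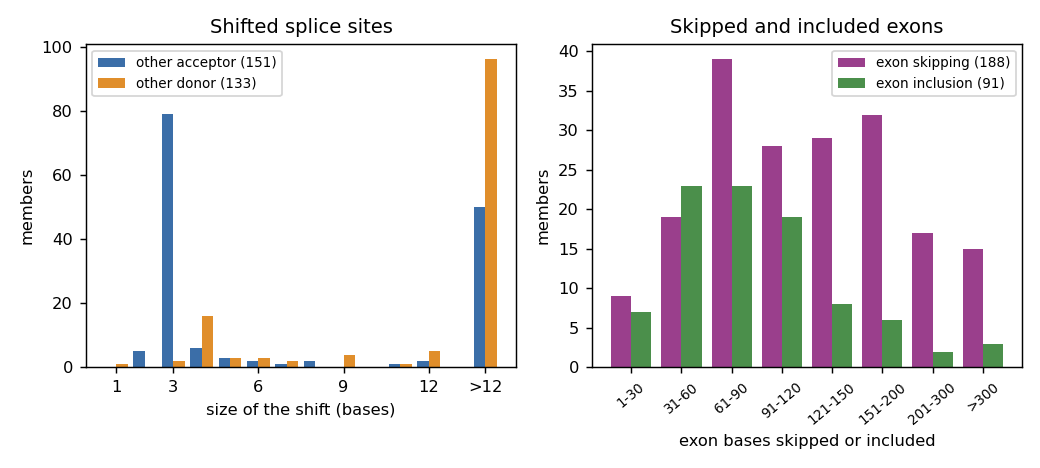
Members by the size of their only difference: bases by which an acceptor or a donor moved (left), and exon bases skipped or included (right). The y axes count members. The bar at 3 bases holds 79 acceptor and 2 donor shifts.

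The share of multiples of 3, which leave the reading frame intact, was higher in the exons that members skipped or included than in the exons of the same genes at large, a description with no test. A single wholly coding exon was skipped in 131 members, and in 88 of these (67.2%) its length was a multiple of 3. A single wholly coding exon was included in 50 members, and in 48 (96.0%) it was. These are counts of members, so an exon shared by several members counts for each. Among all 8814 internal, wholly coding exons annotated in the same genes 3718 (42.2%) were multiples of 3. Skipped stretches had a median of 118.5 bases and included ones of 84 bases.

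The member with most reads was a Myh6 transcript, with 3651 reads in replicate 2 and 4022 in replicate 1, or 14.8% and 15.4% of all Myh6 reads. It joined the last intron (chr14:54942002-54942352 in Myh6-201) to the nearer of the 2 acceptors and so held the 3 bases CAG shown in capitals. Followed from the annotated start codon it encodes 1939 residues, against 1938 in Myh6-201. The same acceptor was used in 6836 of 24490 spanning reads (27.9%) in replicate 2 and in 7241 of 25996 (27.9%) in replicate 1, so its use differed between the libraries by less than the counting error. A second member with this acceptor, set beside Myh6-205, had 1168 and 1133 reads. Another, with 38 exons in place of 39, had 478 and 473, and its chain was classed ISM in replicate 1. The 40 Myh6 members made up 24.8% of the reads of the gene in replicate 2 and 24.6% in replicate 1, and 39 were found in replicate 1. Of these 40, 31 held a site that M21 does not list and most were small: the fourth by reads had 135 and 149 reads, 0.55% and 0.57% of the gene.

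Of the 9214 annotated genes with 5 or more reads in replicate 2, the fewest a gene with a member can have, 715 (7.76%) had a member. The gene lists below are described by counts beside that share, with no test. They also differ in depth, with a median of 21 reads per gene over all 9214 genes and from 31 (splicing factors) to 1024 (mitochondrial energy supply) in the lists, and the part of depth in these counts was not tested.

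In a list of 41 sarcomere and Z-disc genes, all with 5 or more reads in replicate 2, 12 had members (29.3%), 60 in all, and 58 were found. Without Myh6, which held 40 of the 60, it was 11 of 40 genes (27.5%). Pdlim5, a Z-disc scaffold with PDZ and LIM domains, had a member with an unannotated donor 14 bases away and a further 5′ exon (121 reads in replicate 2 and 136 in replicate 1, 63.4% and 58.6% of the gene). The introns of this member spanned annotated exons of 15, 17 and 5 bases, which no model held. Models with at least 166 reads in replicate 2 and 191 in replicate 1 passed over each. The member is thus among those described with the very short exons. Nexn, the actin-binding Z-disc protein nexilin, had 5 members with 126 and 152 reads. The largest of them lacked a 42-base exon and had a further 5′ exon. Models with an intron of either change took 84.4% of spanning reads in replicate 2 and 84.3% in replicate 1. The skipping alone was not counted. A member of Myl3, a myosin light chain, had 6 reads in replicate 2 and 0 in replicate 1, while the gene had 3646 and 4419 reads.

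Among 34 calcium-handling and ion-channel genes, 6 had members (18.8% of those with 5 or more reads), 18 in all, and 17 were found. Srl encodes sarcalumenin and, by alternative splicing, a smaller glycoprotein of the sarcoplasmic reticulum. The leading Srl member had 1085 reads in replicate 2 and 1227 in replicate 1, 70.0% and 69.4% of the gene, and it skipped a 1311-base exon of Srl-201 on chromosome 16. It kept the frame and encodes 473 residues, against 910 for Srl-201. That junction was used in 1093 of 1313 spanning reads (83.2%) in replicate 2 and in 1241 of 1480 (83.9%) in replicate 1. The annotated Srl-202 also lacks the long exon, and the acceptor of the member lay 3 bases from its acceptor. Atp2a2, which encodes the SERCA2 calcium pump, had 10 members with 1.34% and 1.08% of its reads, and 9 of them held an unannotated site. Camk2d, a calcium-dependent kinase, had a member that skipped a 60-base exon, with 33 and 37 reads and 513 residues against 533. That junction took 73.5% of spanning reads in replicate 2 and 82.3% in replicate 1.

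**Figure D3:**
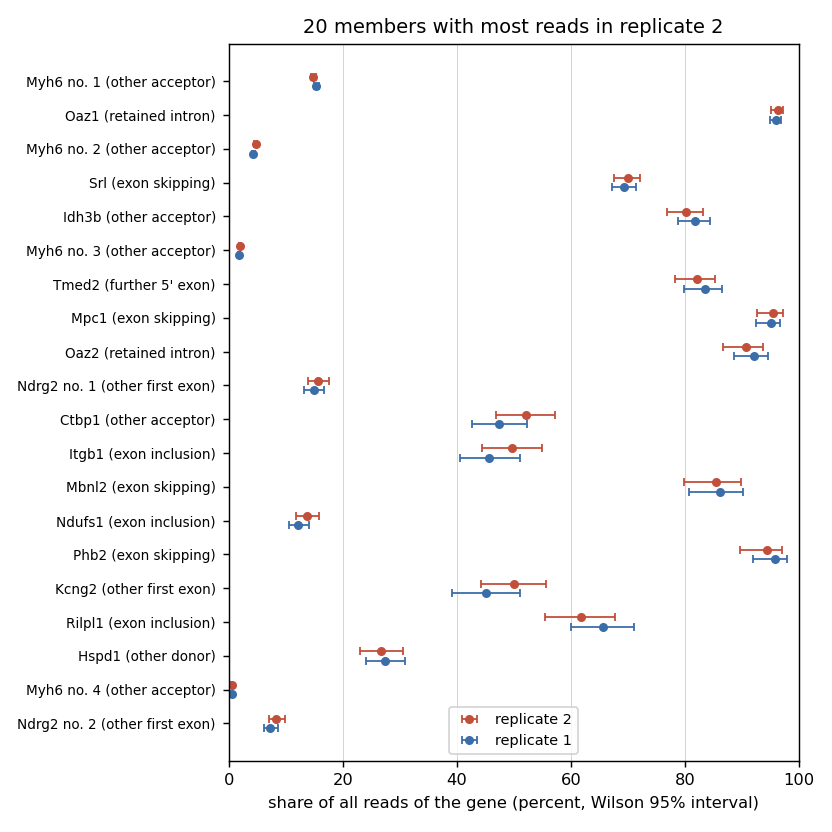
Share of all reads of the gene held by the 20 members with most reads in replicate 2, with Wilson 95% intervals for counting error, in replicate 2 (red, upper) and replicate 1 (blue, lower). The label gives the gene and the difference from the nearest annotated transcript. Oaz1, Mpc1, Phb2 and Oaz2 members hold over 90% of their gene in both libraries, and Myh6, Ndrg2 and Ndufs1 members under 20%.

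The Itgb1 member, a transcript of the beta 1 integrin subunit, included the 81-base exon printed above and had 171 reads in replicate 2 and 156 in replicate 1, 49.7% and 45.7% of the gene. It encodes 801 residues, against 798 in Itgb1-201, with another carboxyl end, since the stop codon lies in the included exon, 6 bases before the last junction. Muscle is known to make such a form, called beta 1D. Models with either intron beside the exon took 56.8% of spanning reads in replicate 2 and 53.2% in replicate 1, and the annotated models had 134 and 141 reads. Ctbp1, a transcriptional corepressor, used the acceptor with the CAG bases in 82.8% and 80.1% of spanning reads (185 and 194 reads in the member, 430 residues against 429). Mef2a, a transcription factor of muscle, had a member with one of 2 alternative exons in place of the other (41 and 38 reads, 500 residues against 498), and that choice took 59.2% of spanning reads in replicate 2 and 65.8% in replicate 1.

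The Idh3b member had 497 reads in replicate 2 and 616 in replicate 1, 80.2% and 81.8% of its gene, which encodes a subunit of the mitochondrial isocitrate dehydrogenase of the citric acid cycle. The intron that set it apart (chr2:130279438-130280262) ran to an annotated acceptor 289 bases past that of Idh3b-201, so that the bases after it and the stop differ (380 residues against 384). The junction took 96.8% of spanning reads in replicate 2 and 97.1% in replicate 1, whereas the annotated models had 16 and 18 reads. The bases after this junction differ between the member (chr2:130279420-130280280, minus strand) and Idh3b-201 (chr2:130279709-130280280).
Idh3b member: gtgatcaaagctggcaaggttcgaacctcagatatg
Idh3b-201: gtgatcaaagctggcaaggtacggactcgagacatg

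Ndufs1, a core subunit of complex I, had a member with a further 104-base exon (158 and 156 reads, 13.8% and 12.2% of the gene) that leaves the protein as annotated. Models with either intron beside the exon took 26.1% and 25.4% of spanning reads, and these include a member called as another first exon. Hspd1, the mitochondrial chaperonin, had a member with a donor 210 bases away (141 and 181 reads, 26.7% and 27.3%) and the same protein. In the list of 63 genes of mitochondrial energy supply, 13 had members (20.6% of those with 5 or more reads), 20 in all, and 19 were found. Mitochondrial fission genes also had members: 4 in Mff (44.8% of its reads in replicate 2 and 44.3% in replicate 1) and 3 in Dnm1l (36 of 89 reads and 27 of 87), of which the largest included a 78-base exon and encodes 725 residues against 699 (19 and 17 reads).

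In fat and glucose handling, 12 of 43 genes had members (28.6% of those with 5 or more reads) and all 19 members were found. Eno3, the muscle enolase, had a member with a donor 12 bases away (5.58% and 4.97% of the gene) and an unchanged protein. Cd36, a fatty acid transporter, had 5 members in 25.6% and 21.5% of its reads, the largest with a further 5′ exon and the same protein (81 and 75 reads). Eno1, the general enolase, had a member with a swapped exon of the same size (64 and 94 reads, 67.4% and 62.3%). Ldhb, a subunit of lactate dehydrogenase, had a member that skipped a 124-base exon (46 and 63 reads, 2.31% and 2.69%).

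Genes of splicing regulators had members too. Mbnl2, a muscleblind-like RNA-binding protein, had a member that skipped the 95-base exon printed above, with 165 reads in replicate 2 and 175 in replicate 1, 85.5% and 86.2% of the gene. The skipped exon shifts the frame near the end, for 361 residues against 355 in Mbnl2-204. The exon was skipped in 92.1% of spanning reads in replicate 2 and 93.4% in replicate 1. In the list of splicing factors and RNA-binding proteins, 11 of 53 genes had members (21.6% of those with 5 or more reads), and all 15 members were found. Ribosomal proteins and translation factors had 3 members in 2 of 88 genes (2.3% of those with 5 or more reads), in Eef1d (43 and 39 reads, a 57-base exon included) and Eif4g1 (10 and 2 reads). The Eef1d members spanned an annotated 15-base exon that no model held. Extracellular matrix and vessel genes had 1 each in Lamb2 (10 and 14 reads) and Rgs5 (9 and 8 reads), 2 of 45 genes (4.65% of those with 5 or more reads).

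Other genes held many members. Ktn1, kinectin, a membrane protein that binds kinesin, had 14 members of 5 to 14 reads each, and together they held 43.0% of its reads in replicate 2 and 39.1% in replicate 1. All 14 were found. Their differences included a further 5′ exon, exons of 72 and 110 bases skipped and an 87-base exon included. Map7d1, a microtubule-associated protein, had 5 members in 46.4% and 48.1% of its reads, with a 111-base exon skipped or not and a 96-base intron retained or not. Dmpk, the kinase of myotonic dystrophy, had 5 in 41.2% and 47.1%, Snrk, a kinase, had 5 in 58.2% and 55.7%, and Coro6, an actin-binding coronin, had 4 in 67.9% and 69.9%. Kcng2, a potassium channel subunit on chromosome 18, had 6 in 62.8% and 56.1%, and its largest began in another first exon with the same protein (148 and 119 reads).

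Among the 20 leading members, other transport and signalling genes were Tmed2, Ndrg2 and Rilpl1. The Tmed2 member, from a gene of cargo transport between the endoplasmic reticulum and the Golgi, had 366 reads in replicate 2 and 400 in replicate 1 (82.1% and 83.5% of the gene) and encodes 208 residues, against 201 in its nearest coding transcript. Ndrg2 had members that differed at the first exon and kept the same protein, the larger with 238 and 254 reads. That difference took 28.9% and 27.2% of spanning reads. The Rilpl1 member (144 and 184 reads) included an 88-base exon and encodes 389 residues against 406. Dctn1, the large subunit of dynactin, had a member with the 21-base exon printed above (96 reads in replicate 2 and 108 in replicate 1, 46.4% and 41.5%). Models with either intron beside the exon took 70.1% and 70.4% of spanning reads. The exon adds 7 residues, for 1246 against 1239. The introns of this member also spanned annotated exons of 18 and 15 bases, which no model held. It is thus another of the members described with the very short exons.

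The Oaz1 member had the largest share of its gene among the 20 leading members. Antizymes bind ornithine decarboxylase and limit polyamine synthesis. Their mRNA is read by a ribosomal frameshift, and the annotated transcripts carry a short gap inside the coding sequence. The Oaz1 member had 1266 reads in replicate 2 and 1482 in replicate 1, 96.3% and 96.0% of the gene, and it ran straight through the 4 bases that Oaz1-201 leaves out (chr10:80828292-80828295). All 1307 and all 1529 spanning reads ran through them, and the annotated models had 0 and 1 reads. The Oaz2 member had 247 and 293 reads, 90.8% and 92.1%, and ran through a 1-base gap in all 268 and 313 spanning reads. No annotated Oaz2 model had a read. Frames were not called for these members, since the frameshift is not part of the rule used.

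A second group of leading members lacked very short annotated exons. In Mpc1, a subunit of the mitochondrial pyruvate carrier, the member held 333 of 349 gene reads in replicate 2 and 383 of 403 in replicate 1, and joined 2 exons between which Mpc1-201 has 4 bases. In Phb2, prohibitin 2 of the inner mitochondrial membrane, the member held 152 and 184 reads, 94.4% and 95.8%, and lacked a 6-base exon (297 residues against 299). In Sept7, a septin of the cytoskeleton, it held 107 and 154 reads, 93.9% and 90.1%, and lacked the 5-base exons of Sept7-201 and Sept7-202, which puts a stop after 25 codons against 437 in Sept7-201. None of these short exons was held by any model of either library. Over the Mpc1-201 exon 342 reads passed in replicate 2 and 394 in replicate 1, over the Phb2 exon 159 and 190, and over either Sept7 exon 113 and 167.

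Hnrnpk, an RNA-binding protein of splicing and translation, showed the same with a 16-base exon. All 5 of its members (195 of 325 gene reads in replicate 2 and 196 of 341 in replicate 1) held a donor 16 bases past the annotated one in place of that exon, so the exchange itself left the length as it was. One of the 5 (22 and 20 reads) also used another acceptor, 60 bases away. The 16 intron bases and the 16 exon bases, printed above, are the same letter at 8 places. Followed through the reference letters, the largest of these members (117 and 128 reads) meets a stop after 368 residues, against 464, and 254 bases before the last junction. In Uchl3, a ubiquitin hydrolase, the member (32 and 52 reads, 84.2% and 89.7%) held 14 intron bases where Uchl3-201 has a 12-base exon, with a stop after 23 codons against 230. In Gbe1, the glycogen branching enzyme, the member (64 and 66 reads, 90.1% and 93.0%) moved the donor and the acceptor of 1 intron by 4 bases each, and the spliced letters of the member and of Gbe1-203 were the same, so this member differs from the annotation in the placing of 4 bases and not in sequence. The same held for a Mta1 member (7 and 11 reads).

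Very short exons were rare in all models of these genes. A model that lacks such an exon can itself be a member, so the genes were in part chosen by what is counted here. Genes without a member were not counted. Of the annotated internal exons of 1 to 10 bases in the genes of the members, with 10 or more reads across them, 0 of 23 were held by any model in replicate 2 and 0 of 22 in replicate 1. For 11 to 20 bases it was 5 of 36 in each library, for 21 to 30 bases 62 of 80 (77.5%) and 63 of 79 (79.7%), for 31 to 60 bases 97.3% and 97.4%, and above 60 bases 99.2% and 99.1%. An intron of 57 members in 39 genes spanned an annotated exon of 20 bases or fewer, and these members had 1628 reads in replicate 2 and 1783 in replicate 1. Whether the reads held these bases was not tested, and for such members the model need not be the sequence of the molecule.

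**Figure D4:**
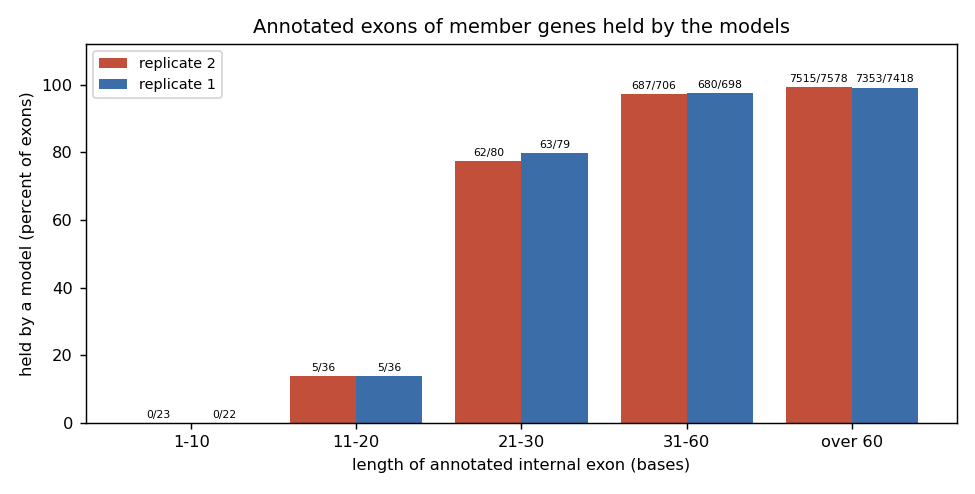
Annotated internal exons of the genes with members, by length in bases (x axis), and the percent of those with 10 or more reads across them that at least 1 model held exactly (y axis), in replicate 2 (red, left) and replicate 1 (blue, right). Fractions above the bars give exons held of exons covered. Exons of 1 to 10 bases were held by no model. Some of these genes were included because a member lacks such an exon.

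Over all members the share of the gene varied widely. In replicate 1, among 925 members whose gene had 20 or more reads, the median share was 8.99% (quartiles 3.03 and 21.2%), and in replicate 2 it was 11.6% for the same members, which were chosen there. A share of 10% or more was reached by 429, of 25% by 195, of 50% by 53 and of 75% by 15, while 124 were below 1%. The member led all spliced models of its gene in both libraries in 196 cases, and 271 members had more reads than all annotated models of the gene together in both libraries. In 48 genes, with 65 members, no annotated model had a read in either library.

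The use of the event itself was also measured in both libraries. Of the 757 members whose event was spanned by at least 20 reads in each library, the median use was 28.2% in replicate 2 and 28.0% in replicate 1, the median difference was 2.64 points, and 650 differed by 10 points or fewer. These are not 757 separate events, since members with the same event each count. The acceptor shared by many Myh6 members is 1 such event, and both medians are values of Myh6 members. The event took more than 50% of spanning reads in both libraries in 237 and 90% or more in 86. The event reads of replicate 2 include the reads that chose the members, so a difference between the libraries is not free of the choice. The Wilson intervals of the libraries did not overlap for 2 of the 757 (0.264%). These were an acceptor of Doc2g (39 of 215 reads, 18.1%, in replicate 2 and 76 of 235, 32.3%, in replicate 1) and the first exon of the Myl3 member (7 of 3202 and 0 of 3852). They were singled out after their values were seen.

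Reading the annotated start codon of the nearest coding transcript through each member gave the coding effect. The same protein as in that transcript resulted in 296 members. For some, such as those of Snrk, the event was called against another transcript, so the place of the event does not follow. The frame and the annotated stop were kept with an altered protein in 317, of which 199 were shorter, 115 longer and 3 of the same length. The change was 1 residue in 72 of these (45 shorter and 27 longer), and 58 of those with a change of 1 residue came from the 3-base acceptors alone. Another stop in or near the last exon was met in 86 and an early stop, more than 50 bases before the last junction, in 100. The start was not covered in 131, and in 58 the letters of part of the model were not held. In 8 members the gene had no complete coding transcript, in 5 the annotated coding sequence had a gap, and 2 had no stop.

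Members with an early stop had the lowest median share of their genes among the 5 coding effects compared. Stops so placed are known to mark an mRNA for nonsense-mediated decay. Of the 100, 94 were found in replicate 1, and the median share there was 3.92% (n = 97), against 10.6% in members with the same protein (n = 271), 9.40% with the frame kept (n = 289), 10.1% with another late stop (n = 78) and 9.43% with the start not covered (n = 121). A share of 50% or more was reached by 3 members with an early stop, and 2 of these, in Sept7 and Uchl3, lacked a short annotated exon. Without members that span such an exon the median was 3.09%. These medians are given as a description, with no test. Over all members the median share was 9.57% with a gene minimum of 10 reads and 6.15% with 50, so it varied with depth. Of the 100 members with an early stop, 92 lay in genes other than Myh6 and 80 had all sites annotated. The parts of depth and of decay in the low share were not tested.

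**Figure D5:**
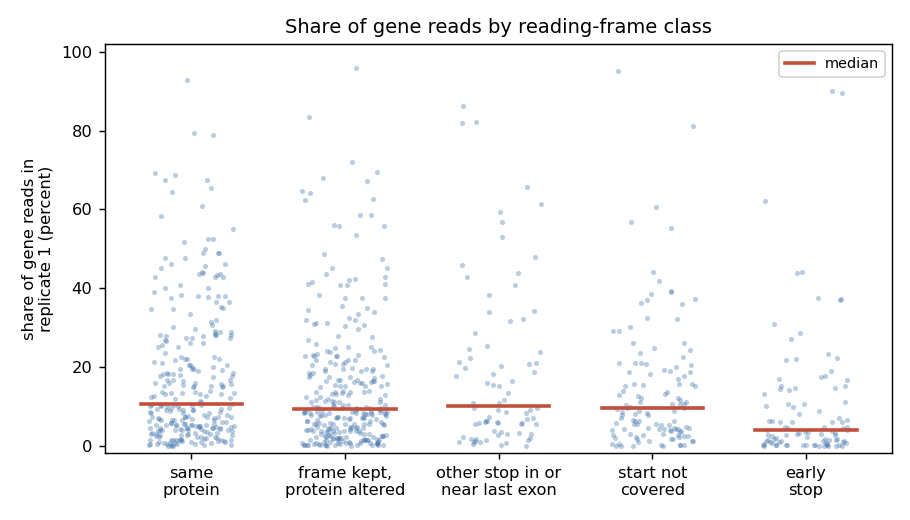
Share of gene reads in replicate 1 (y axis, percent) of members whose gene had 20 or more reads there, by the effect on the reading frame (x axis). Points are members and red lines medians, at 10.6, 9.40, 10.1, 9.43 and 3.92% from left to right.

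The members with most reads that were absent from replicate 1 had 5 to 9 reads in replicate 2. A Strn3 member with 9 reads held an unannotated donor 4 bases away, and that junction had 1 read in another model of replicate 1. An Atp2a2 member had 8 reads. Members of Atp6v1h, Gm14403 and Ptpn3 had 7 each, and those of Ipo11, Paxbp1, Myl3 and Rbbp7 had 6 each. The Rffl member, with 5 reads, was in a gene with 8 reads in replicate 2 and 4 in replicate 1. The genes Ptpn3 and Paxbp1 had 24 and 14 reads in replicate 1.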

How the data were processed

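Long-read RNA-seq libraries of heart were compared as 2 replicates of 1 group. The deposited values are counts of long reads per transcript model, 1 library each and not normalized; per the file headers and the text deposited with them, they refer to mm10 and GENCODE M21 with models added by TALON. Which aligner, versions and filters the authors used is not given in the sources used here. Deposited with the counts were exon numbers, lengths and coordinates of each model.

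Members follow the class, gene and read minimum of 5 named in the report. The members and gene lists were chosen with earlier results of these data known. A model was taken as found in the other library where chromosome, strand and every intron were equal. Events were called against the annotated transcript sharing most introns (ties: most reads), frames against the coding transcript sharing most introns, and letters were read from M21 transcripts, whose lengths matched their exons in all 6618 used. No frame was called where the annotated coding sequence had a gap under 10 bases. In the events such gaps were treated as introns. Event use is the share of reads of models spanning the event. A model had the event where it held any intron that set the member apart. Where there was no such intron, an exon had to run through the intron of the annotated transcript. For a member with several differences the introns of all of them were pooled. Intervals are Wilson 95% (scipy 1.17.1, Python 3.11.15); classes were compared with two-sided Fisher's exact tests, Benjamini-Hochberg adjusted over 3, called below 0.05. Models are not replicates. The p-values take models as independent units and do not measure the spread between libraries or animals. With no residual degrees of freedom edgeR's quasi-likelihood test was not run, and edgeR 4.0.16 (R 4.3.3) gave TMM factors for an alternative. Event and frame code was tested on simulated models.

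Named members were the 20 with most reads, the 10 with the largest share in replicate 1, the 10 with most reads absent from it, all in genes with 3 or more members, all members of a list with 5 or fewer, or else its leading 4, for 7 lists, and the one joining 2 genes; Dctn1, Doc2g and Mta1 were chosen after their values were seen. Alternatives varied read minimums, matching, denominators, reference transcripts and scaling. Subsets without Myh6, unannotated sites or short exons were added after seeing the data.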

Additional observations from a re-analysis of the deposited data

How the results depend on the processing

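The number of members was 1910 with a read minimum of 3 and 432 with 10, and ranged from 1003 to 1121 when the rule was applied to each replicate alone. The percent found was 93.8 when 2 reads in replicate 1 were asked, 75.2 with 5 reads, 91.6 with a read minimum of 3 and 100 with 10, 99.003 when only the introns that set the member apart were looked for, and 97.5 when members were chosen in replicate 1 and looked for in replicate 2. The difference from annotated models was 0 points with 10 or more reads (adjusted p = 1, Fisher's exact test), where every model of both was found and none could show. With a read minimum of 3 the difference from NNC models was 4.20 points (adjusted p = 4.97e-04, exact) and that from ISM models turned to 1.49 points (adjusted p = 0.0838, exact), where more models had few reads. The median share of gene reads was 15.7% of annotated and member reads, 11.4% of reads spanning the event and 6.15% with a gene minimum of 50 reads. Without Myh6 the members summed to 25943 reads per 1000000 in replicate 2 and 22641 in replicate 1. The count of members with skipped exons, with a kept frame and with an early stop stayed within 1.5 times under each reference transcript and each subset tried; the subsets (all sites annotated, no short exon spanned, genes other than Myh6) were chosen after seeing the data. No paired analysis was possible because there is only 1 group. Depth limits members with few reads: all members absent from replicate 1 had under 10 reads, and a count of 0 there allows up to 15% of a gene with 20 reads.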
